A study of Mus musculus with 15 samples.

Results

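Galectins are lectins that bind beta-galactoside sugars, such as the N-acetyllactosamine units on branched N-glycans, and 4 of their genes are described here: Lgals1, Lgals3, Lgals8 and Lgals9. They are 4 of the 20453 genes that could be named in a table of RNA-seq counts from mouse bone marrow. The genes were listed by name, and where a gene had several transcripts in the table, the transcript was chosen by its mean count over all libraries, the highest being used. That choice used no difference between groups, but the genes were picked with other results of these data already known, so their tests describe these libraries.

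The libraries came from C57BL/6 mice in a study of MLL-AF9, a human fusion oncogene that drives acute myeloid leukaemia. Its cDNA was placed in A2Lox-cre cells, from which chimeric mice were made and then crossed back to C57BL/6, and double heterozygous females were used. Before sorting, marrow cells carrying Ter119, Gr-1, B220, Cd11b or Cd5 were removed with magnetic beads. Of 15 libraries, 14 fall into 4 groups: LTearly (4 libraries), LTlate (3), BMTGMP (3) and wtGMP (4), the last read as wild-type granulocyte-macrophage progenitors (GMPs). The labels give every library the same strain, tissue and protocol text, with a GMP gate and a gate for long-term haematopoietic stem cells. They name neither the gate of each library nor the meaning of LTearly, LTlate and BMTGMP, and give no age, dose or time, and they do not say whether the replicates are separate animals, so p-values measure the spread between these samples, which may be technical. The remaining library is titled LTearly, while its column in the table is named LTlate, and it is shown apart. Every column name, wtGMP included, holds MllAF9_BMTs, which does not tell which groups carried the fusion.

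Galectin-1, encoded by Lgals1, is a prototype galectin, a dimer of identical subunits, and marrow stromal cells are a known source of it. Galectin-3, encoded by Lgals3 and long known as the macrophage antigen Mac-2, is the chimera type, with a sugar-binding domain joined to a flexible tail through which it forms oligomers. Galectin-8 and galectin-9 are tandem-repeat galectins, in which a pair of different sugar-binding domains sits on a single chain. Outside the cell galectins cross-link glycoproteins, and inside it galectin-3 and galectin-8 bind damaged endosomes and lysosomes. In human acute myeloid leukaemia galectin-9 has been described as a ligand of TIM-3, the product of HAVCR2.

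In the RefSeq table for GRCm38.p6, whose build differs from the mm9 build named for the counts, Lgals1 spans chr15:78926725-78930465, Lgals3 chr14:47373860-47386167, Lgals8 chr13:12439402-12464977 and Lgals9 chr11:78962979-78984924. The 250 bases before the start of Lgals3 and of Lgals9 are printed here, the members whose profiles varied most and least over the 14 libraries. They are from RefSeq, build GRCm38.p6, written 5′ to 3′ on the strand of the gene, with motif matches in capitals.
Lgals3 (chr14:47373610-47373859, plus strand): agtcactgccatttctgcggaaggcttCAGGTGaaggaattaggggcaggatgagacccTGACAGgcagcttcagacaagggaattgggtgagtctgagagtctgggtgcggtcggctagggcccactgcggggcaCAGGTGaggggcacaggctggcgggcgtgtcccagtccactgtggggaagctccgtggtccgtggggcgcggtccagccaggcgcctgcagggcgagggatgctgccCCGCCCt
Lgals9 (chr11:78984925-78985174, minus strand): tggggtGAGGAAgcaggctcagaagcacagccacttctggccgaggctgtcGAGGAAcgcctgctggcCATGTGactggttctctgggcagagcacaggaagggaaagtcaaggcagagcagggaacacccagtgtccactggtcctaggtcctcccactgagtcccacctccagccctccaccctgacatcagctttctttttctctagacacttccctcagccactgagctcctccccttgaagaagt

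Both strands were searched for GGGCGG (GC box), CANNTG (E-box), TGANTCA (AP-1), TGACAG (MEIS) and GAGGAA (PU box), and the printed matches of different motifs do not overlap. The Lgals3 stretch held 2 E-boxes, present in 66.2% of 32851 promoter stretches of the same length, 1 MEIS match (15.9% of stretches) and 1 GC box (32.7%). The Lgals9 stretch held 2 PU boxes (23.3% of stretches) and 1 E-box. Neither held the AP-1 letters, found in 6.75% of stretches. Each share is that of stretches with at least 1 match of the motif. The Lgals3 stretch was 66% G or C with 13 CpG sites and that of Lgals9 58.4% with 3, against medians of 52.4% and 6 over all stretches. A match is a run of letters and not a measured binding site.

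Depth differed between groups, with 2695917 to 8695136 counts on named genes in LTearly, 11569408 to 15093009 in LTlate, 4556108 to 10712743 in BMTGMP and 2469470 to 6978756 in wtGMP. Summed markers of GMPs (9 genes, among them Mpo, Elane and Kit) reached 1451 to 6766 CPM (counts relative to the scaled library total) in LTearly, 1604 to 2004 in LTlate, 8199 to 11691 in BMTGMP and 19469 to 22805 in wtGMP. Mpo made up most of this sum in wtGMP, with a mean of 17482 of 20871 CPM. By the edgeR test described below, 7 of the 9 were lower and 1 higher in LTearly than in wtGMP. In LTlate 4 were lower and 1 higher, and in BMTGMP 1 was lower and 0 higher. Over all genes 20.1%, 10.8% and 6.58% were called in these comparisons. Markers of long-term stem cells (6 genes) summed to 22.5 to 51.0 CPM in LTearly, 0 to 7.09 in LTlate, 1.30 to 24.5 in BMTGMP and 0 to 7.92 in wtGMP. Slamf1, Procr and Fgd5 were at 0 in LTlate, Fgd5 in BMTGMP and Slamf1 in wtGMP. Only 4 of these markers passed the low-count filter, and 0 of the 4 were called in any of the 6 comparisons, beside 0.206% to 20.1% of all genes. Late neutrophil markers (10 genes, such as Ngp, Ltf and Camp) summed to 12791 to 25689 CPM in LTearly, 5159 to 9309 in LTlate, 1419 to 6935 in BMTGMP and 52.3 to 152 in wtGMP. Every LTearly library correlated better on average with the LTlate libraries than with the others of its own group. BMTGMP replicates 1 and 2 did so too (0.901 with LTlate against 0.891 with their own group, and 0.885 against 0.881). LTearly replicate 4 also correlated better with BMTGMP (0.870) and wtGMP (0.853) than with its own group (0.827). The LTlate libraries were the deepest, and the part of depth in these correlations was not tested. With whole populations sequenced, fewer cells of a type and less RNA per cell cannot be told apart.

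Lgals1 was the most abundant of the 4 transcripts per kilobase in 13 of the 14 libraries, and its mean level was lowest in LTearly and highest in LTlate. The LTearly libraries held 104, 165, 130 and 147 CPM, the LTlate libraries 268, 392 and 451 CPM, and the BMTGMP libraries 390, 165 and 253 CPM, against 229, 256, 197 and 224 CPM in wtGMP. All 4 LTearly libraries thus lay below all wtGMP libraries, as 10.3% of the genes tested did, and all LTlate libraries lay above them, as 15.1% of genes did, while BMTGMP libraries lay on both sides. The means were 137 ± 25.98 CPM in LTearly (SD, n = 4), 370 ± 93.2 in LTlate (n = 3), 269 ± 114 in BMTGMP (n = 3) and 226.5 ± 24.4 in wtGMP (n = 4). Per kilobase of transcript, Lgals1 stood at the 97.8th to the 99.6th percentile of all genes across the 14 libraries.

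**Figure D1:**
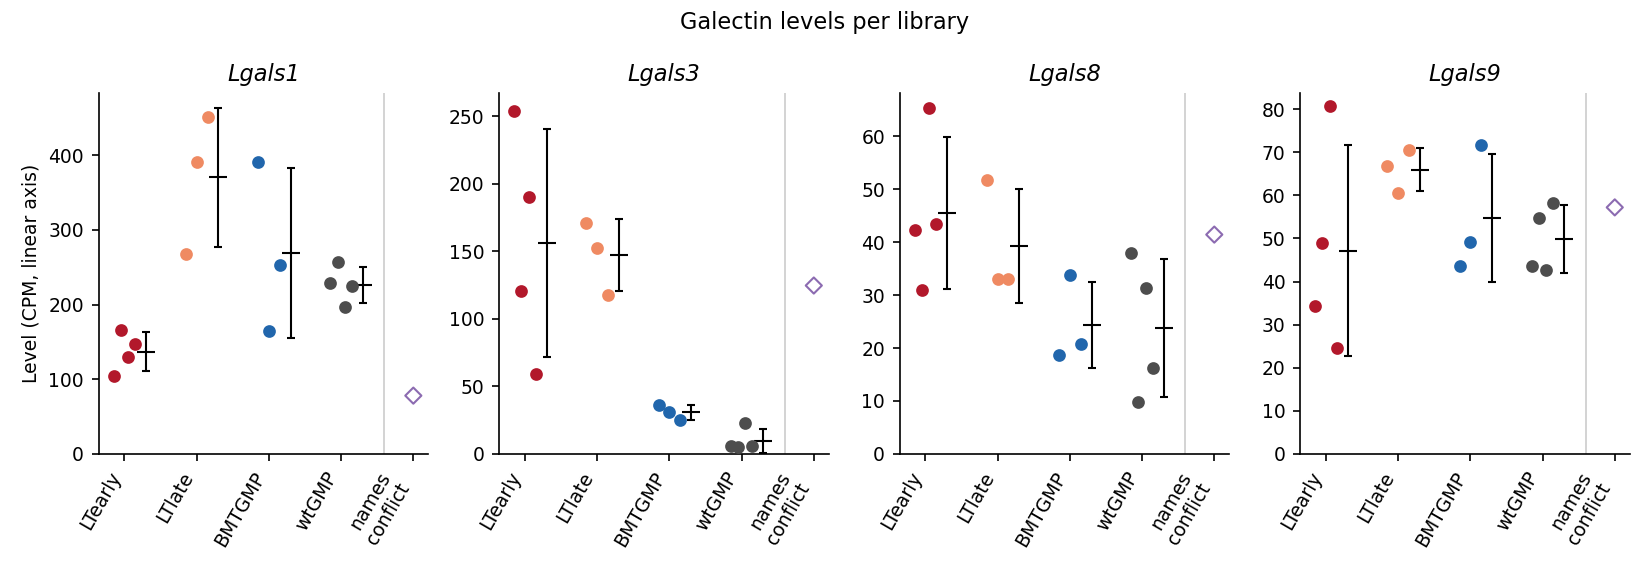
Level of each galectin in CPM (linear axis, a panel per gene), with a point per library, and mean ± SD as the black bar beside each group. Open diamonds mark the library with conflicting names. The Lgals3 points of LTearly and LTlate, from 59.1 to 254 CPM, all sit above those of BMTGMP (24.9 to 36.3) and wtGMP (4.73 to 22.9).

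Differences between groups were tested with edgeR's quasi-likelihood test in 1 fit of all 4 groups, and p-values were adjusted over the 14542 genes tested. The 3 comparisons with wtGMP share the same wtGMP libraries. Against wtGMP, 2 of the 4 galectins were called in LTearly (20.1% of all genes were), 2 of 4 in LTlate (10.8%) and none in BMTGMP (6.58%). In BMTGMP 1 of the 4 had an unadjusted p under 0.05, beside 2833 of all 14542 genes. DESeq2 called that 1, beside 1424 of all genes. Lgals1 was 1.66-fold lower in LTearly than in wtGMP (log2 fold change -0.73 ± 0.22 SE, adjusted p = 0.0176). It was 1.64-fold higher in LTlate than in wtGMP (0.71 ± 0.23, adjusted p = 0.0476), a call that held in 1 of 7 fits with a library of these groups left out, that without LTlate replicate 2. Between BMTGMP and wtGMP its difference was within the replicate spread (0.25 ± 0.23, adjusted p = 0.630), with a 2-SE interval of -0.21 to 0.72. When LTearly replicate 1 was left out, the LTearly difference missed the threshold (-0.64, adjusted p = 0.0533), as it did with wtGMP replicate 2 left out (-0.67, adjusted p = 0.0558).

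The widest gap in Lgals1 was between the LT groups themselves. It was 2.71-fold lower in LTearly than in LTlate (log2 fold change -1.44 ± 0.23, adjusted p = 0.00586), and all LTearly libraries lay below all LTlate libraries, as 5.67% of genes did. In this comparison edgeR called 0.206% of genes, and Lgals1 ranked 4 of 14542 by p. The call held in 7 of 7 fits with a library of these groups left out, with adjusted p from 0.00196 to 0.0483. It was lost when the library with conflicting names was counted as LTlate (-1.17, adjusted p = 0.410) and held when it was counted as LTearly. Lgals1 was also lower in LTearly than in BMTGMP (-0.98 ± 0.23, adjusted p = 0.0105), although BMTGMP replicate 2 lay just below the highest LTearly library, both at 165 CPM. Without BMTGMP replicate 1 this difference was -0.64 (adjusted p = 0.136). Between LTlate and BMTGMP it was within the spread (0.46 ± 0.25, adjusted p = 0.470). In the order of mean levels, LTlate and its neighbour BMTGMP did not differ beyond their spread, nor did BMTGMP and wtGMP, and LTearly lay below wtGMP.

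Markers of stromal and endothelial cells, a known source of galectin-1, were summed in each library. Their summed level over 9 genes was 59.96 to 84.9 CPM in LTearly, 95.1 to 191 in LTlate, 31.5 to 84.6 in BMTGMP and 98.1 to 134 in wtGMP. By edgeR, 0 of the 8 markers tested were called between LTearly and LTlate, and against wtGMP 1 was higher in LTearly, 0 in LTlate and 1 in BMTGMP. Over all genes 0.206% were called between LTearly and LTlate, and 20.1%, 10.8% and 6.58% against wtGMP. The number of markers with more than 3 counts was 9 of 9 in LTearly, 8 in LTlate with Emcn at 0, 9 in BMTGMP and 8 in wtGMP. Markers of eosinophils, basophils and mast cells (7 genes) summed to 8.57 to 39.6 CPM in LTearly, 91.9 to 312 in LTlate, 4.40 to 6.98 in BMTGMP and 155 to 281 in wtGMP. The part of stromal and endothelial cells, or of eosinophils, basophils and mast cells, in the Lgals1 differences was not tested. Markers of dendritic, B, T and NK, erythroid and megakaryocytic cells summed to at most 48.1 CPM per list in any library.

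Lgals3 differed most. It was at 254, 121, 190 and 59.1 CPM in the LTearly libraries, 171, 153 and 118 CPM in LTlate and 36.3, 30.6 and 24.9 CPM in BMTGMP, against 5.59, 4.73, 22.9 and 5.70 CPM in wtGMP. The wtGMP values rest on 39, 12, 102 and 18 counts and the LTearly values on 453 to 1038 counts. Every LTearly, LTlate and BMTGMP library exceeded every wtGMP library. Group means were 156 ± 84.5 CPM in LTearly (SD, n = 4), 147 ± 26.9 in LTlate (n = 3), 30.6 ± 5.67 in BMTGMP (n = 3) and 9.72 ± 8.77 in wtGMP (n = 4).

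Lgals3 was 15.7-fold higher in LTearly than in wtGMP (log2 fold change 3.97 ± 0.57, adjusted p = 0.000311) and 14.8-fold higher in LTlate than in wtGMP (3.89 ± 0.58, adjusted p = 0.000798). Libraries did not overlap in the higher direction at 11.5% of genes in LTearly and at 15.1% in LTlate. Both calls held in every fit with a library left out. The 3.09-fold difference between BMTGMP and wtGMP was not called (1.63 ± 0.56, adjusted p = 0.127), though all BMTGMP libraries lay above all wtGMP libraries, as 10.9% of genes did. That difference turned on wtGMP replicate 3, whose 22.9 CPM stood well above the other wtGMP libraries: without it the log2 fold change was 2.51 (adjusted p = 0.000722). DESeq2 called it with all libraries in (1.63, adjusted p = 0.0176).

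Between LTearly and LTlate the difference in Lgals3 was within the spread (log2 fold change 0.08 ± 0.53, adjusted p = 0.975), with a 2-SE interval of -0.97 to 1.13. Against BMTGMP, Lgals3 was 5.07-fold higher in LTearly (2.34 ± 0.57, adjusted p = 0.0324) and all LTearly libraries lay above all BMTGMP libraries, as 7.78% of genes did. In that comparison 6.21% of genes were called, and the Lgals3 call held in 2 of 7 fits with a library left out, those without LTearly replicate 2 or 4, with log2 fold changes of 1.98 to 2.59. For LTlate against BMTGMP the value was similar and missed the threshold (2.26 ± 0.59, adjusted p = 0.0878), while edgeR called 1.98% of genes. All LTlate libraries lay above all BMTGMP libraries, as 10.8% of genes did. DESeq2 called Lgals3 there (adjusted p = 0.00133), beside 569 of all 14542 genes. In the order of mean levels, no neighbouring groups (LTearly and LTlate, LTlate and BMTGMP, BMTGMP and wtGMP) differed past edgeR's threshold.

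**Figure D2:**
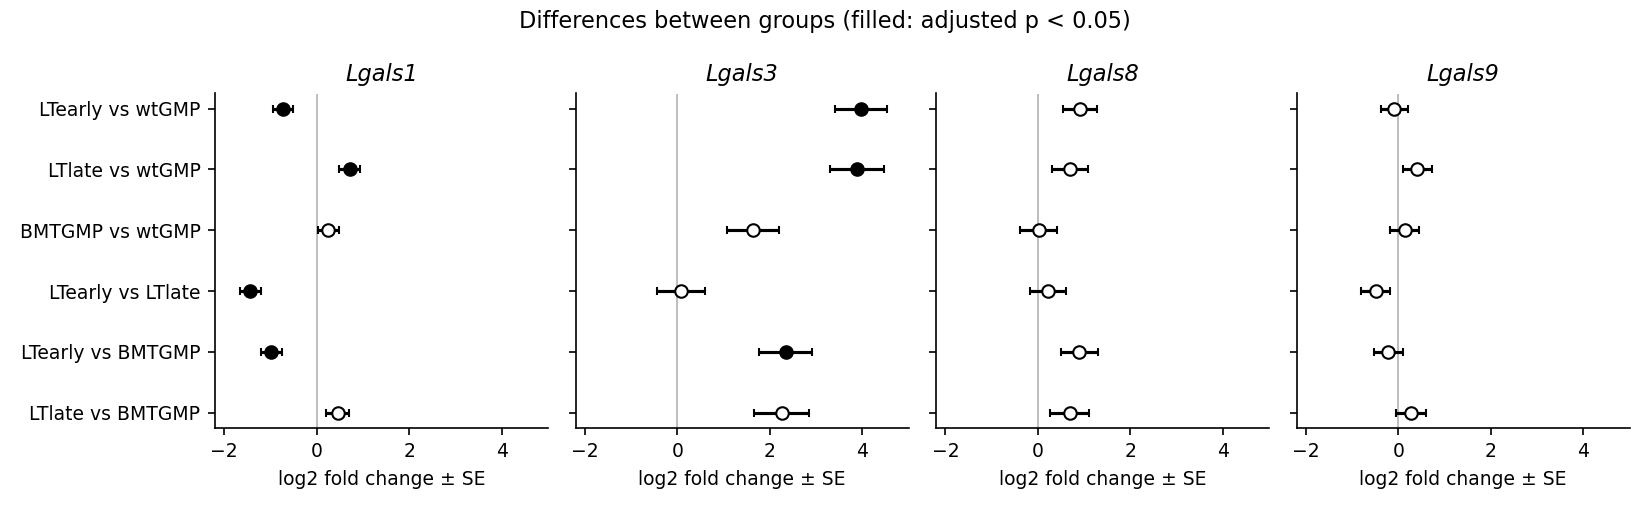
Log2 fold change ± SE (x axis, first group over second) of each galectin in the 6 comparisons between groups (y axis), from edgeR. Filled points passed an adjusted p of 0.05: Lgals1 in 4 comparisons, on both sides of 0, and Lgals3 in 3, all to the right of 0.

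Cells that carry galectin-3 in marrow include macrophages, so markers of monocytes and macrophages were summed beside it (13 of 14 listed genes were in the table). They reached 560 to 1202 CPM in LTearly, 681 to 965 in LTlate, 274 to 475 in BMTGMP and 408 to 510 in wtGMP, with C1qb at 0 in BMTGMP and C1qb and Ms4a7 at 0 in wtGMP. By edgeR, 4 of the 10 markers tested were higher in LTearly, 3 in LTlate and 2 in BMTGMP than in wtGMP. Over all 14542 genes tested, 1621, 1095 and 642 were called higher in these comparisons. Adgre1, which encodes F4/80 and was chosen after its values were seen, averaged 103 ± 8.78 CPM in LTearly, 78.4 ± 9.48 in LTlate, 64.6 ± 11.5 in BMTGMP and 13.1 ± 6.40 in wtGMP. The summed list went the other way in BMTGMP, with a mean of 366 CPM against 444 in wtGMP. All 10 late neutrophil markers were called higher in LTearly and in LTlate than in wtGMP, and 8 of them in BMTGMP, beside the same counts over all genes. The part of these cells in the Lgals3 differences was not tested.

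Lgals8 had the lowest level per kilobase in LTearly, LTlate and BMTGMP, and its groups overlapped in all 6 comparisons. It was at 42.3, 30.9, 65.3 and 43.5 CPM in LTearly, 51.7, 33.0 and 33.1 CPM in LTlate and 18.7, 33.7 and 20.7 CPM in BMTGMP, against 38.0, 9.84, 31.4 and 16.2 CPM in wtGMP. The LT libraries tended to the upper end, but wtGMP replicate 1 lay among them. Means were 45.5 ± 14.4 CPM in LTearly (SD, n = 4), 39.3 ± 10.8 in LTlate (n = 3), 24.4 ± 8.14 in BMTGMP (n = 3) and 23.8 ± 13.1 in wtGMP (n = 4).

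With all libraries in, no comparison of Lgals8 passed the threshold in edgeR or DESeq2, and 2 of the 6 had an unadjusted p under 0.05. These were LTearly against wtGMP (log2 fold change 0.91 ± 0.37, adjusted p = 0.0789) and LTearly against BMTGMP (0.90 ± 0.40, adjusted p = 0.198). Over all 14542 genes, 4865 and 2906 had an unadjusted p under 0.05 in these comparisons. Without wtGMP replicate 1, LTearly against wtGMP was called by edgeR (1.23, adjusted p = 0.0321). For LTlate the value was 0.70 ± 0.39 against wtGMP and for BMTGMP 0.01 ± 0.39. The 2-SE intervals, 0.18 to 1.64 for LTearly and -0.77 to 0.80 for BMTGMP against wtGMP, are wide. Lgals8 has 2 transcripts in the table whose counts are nearly equal, and in some libraries its counts are not whole numbers.

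Lgals9, the other tandem-repeat galectin, varied least, with a root-mean-square (RMS) deviation of 0.442 from its mean log2 level over the 14 libraries, against 1.90 for Lgals3. It was at 34.3, 49.0, 80.8 and 24.6 CPM in LTearly, 66.8, 60.6 and 70.5 CPM in LTlate and 43.5, 49.3 and 71.7 CPM in BMTGMP, against 43.6, 54.7, 42.6 and 58.3 CPM in wtGMP. All 3 LTlate libraries exceeded all 4 wtGMP libraries, as happened in the higher direction at 15.1% of genes. The LTearly libraries spread the most, with a coefficient of variation of 52.0%, against 7.64% in LTlate, 27.1% in BMTGMP and 15.8% in wtGMP.

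No Lgals9 comparison passed in edgeR or in DESeq2, and 0 of 6 had an unadjusted p under 0.05, beside 1728 to 4865 of all 14542 genes. The log2 fold change against wtGMP was -0.09 ± 0.29 in LTearly (adjusted p = 0.889), 0.41 ± 0.31 in LTlate (adjusted p = 0.462) and 0.14 ± 0.31 in BMTGMP (adjusted p = 0.896). Between LTearly and LTlate it was -0.50 ± 0.31 (adjusted p = 0.601). The 2-SE intervals against wtGMP ran from -0.67 to 0.50 for LTearly and from -0.21 to 1.03 for LTlate.

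The balance between Lgals1 and Lgals3 differed from group to group. Per kilobase of transcript, Lgals3 took 17.4% to 53.8% of the summed level of the 4 transcripts in LTearly, 12.7% to 24.9% in LTlate, 4.92% to 8.61% in BMTGMP and 1.001% to 5.82% in wtGMP. Lgals1 took 35.8% to 70.4% in LTearly, 63.3% to 79.1% in LTlate, 75.2% to 88.5% in BMTGMP and 81.2% to 88.1% in wtGMP. In LTearly replicate 1 Lgals3 exceeded Lgals1, with a ratio of 1.502 per kilobase. Elsewhere the ratio was 0.248 to 0.904 in the other LTearly libraries, 0.161 to 0.392 in LTlate, 0.0573 to 0.115 in BMTGMP and 0.0114 to 0.0716 in wtGMP. In this ratio the highest BMTGMP library lay below the lowest LTlate library, and wtGMP replicate 3 lay within the range of BMTGMP.

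**Figure D3:**
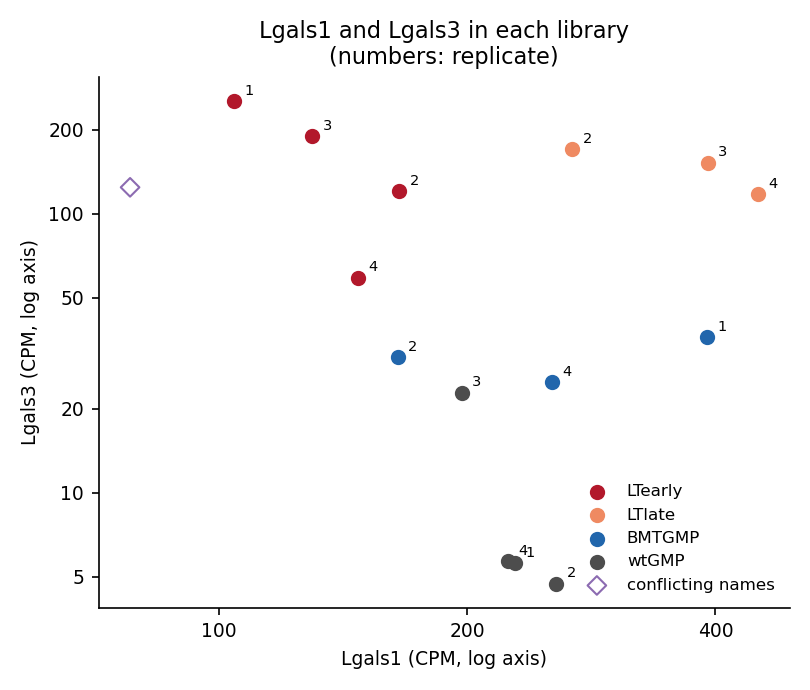
Lgals1 (x) against Lgals3 (y), both in CPM on log axes, with a point per library numbered by replicate. LTearly sits at the upper left (Lgals1 104 to 165 CPM), LTlate at the upper right (268 to 451 CPM), and BMTGMP and wtGMP below both.

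**Figure D4:**
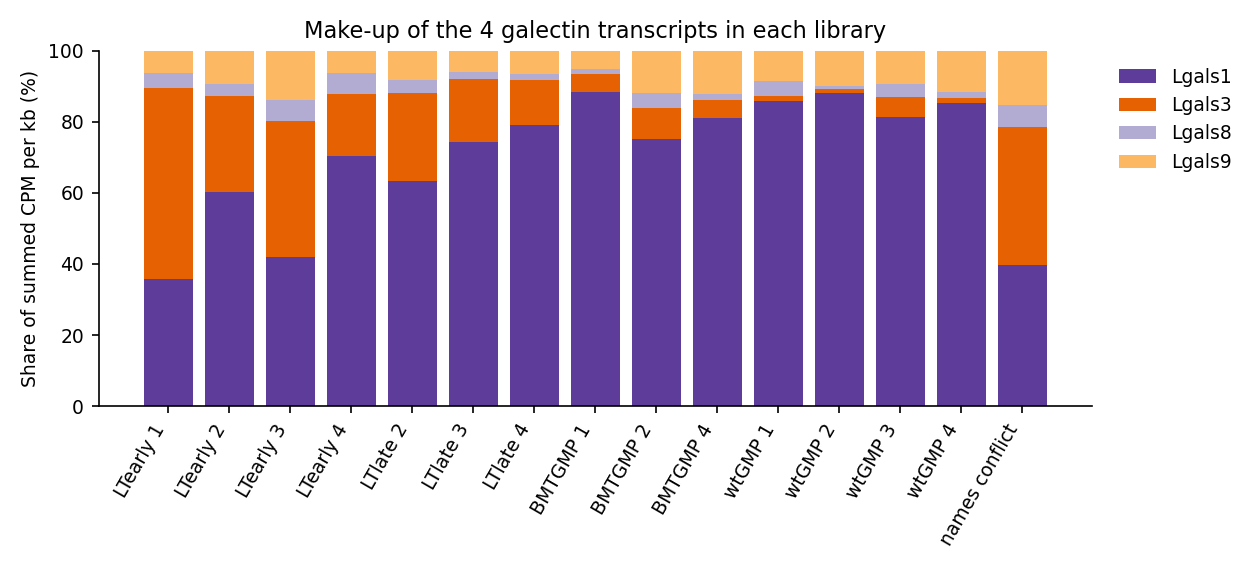
Share of each galectin (stacked bars, %) in the summed level of the 4 transcripts, in CPM per kilobase, for each library. The Lgals3 share is 17.4% to 53.8% in LTearly and 1.001% to 5.82% in wtGMP.

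Profiles over the 14 libraries were compared by the RMS difference of log2 CPM, each profile centred on its own mean, among 9795 candidate genes. Closest to Lgals3 were Rasgrp4, a Ras exchange factor of myeloid cells (RMS 0.561), Lilrb4a, an inhibitory receptor (0.589), Dok2, a signalling adaptor (0.627), Itgam, the integrin chain of Cd11b (0.642), and Gpnmb, a transmembrane glycoprotein of macrophages (0.645). Over all candidates the median RMS difference from Lgals3 was 1.995. Closest to Lgals1 were Myef2 (0.303), Srebf1, a regulator of lipid synthesis (0.360), Rasal3 (0.378), Dnajc10 (0.378) and Dap (0.379), against a median of 0.794. The gene nearest to Lgals8 was Pigm (0.315) and that nearest to Lgals9 Zfp142 (0.226). Among the galectins themselves Lgals1 and Lgals9 were the closest pair (RMS 0.583) and Lgals1 and Lgals3 the farthest apart (2.09). This measure depends on how much a profile varies. A flat profile would lie 0.601 from Lgals1, 0.442 from Lgals9 and 1.90 from Lgals3, so the closest pair need not vary together. These values are descriptions, and all libraries enter each of them.

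Among galectin counter-receptors, the glycoproteins that galectins are known to bind, 42.9% of those tested were called in LTearly, 38.1% in LTlate and 23.8% in BMTGMP against wtGMP. Of 21 tested, 6 rose and 3 fell in LTearly against wtGMP, 6 rose and 2 fell in LTlate, and 3 rose and 2 fell in BMTGMP, beside 20.1%, 10.8% and 6.58% of all genes called in either direction. The median log2 fold change of the list was 0.86 in LTearly, 0.27 in LTlate and -0.13 in BMTGMP, beside 0.22, 0.00 and 0.07 over all genes tested. Integrin alpha M and its partner Itgb2, which form the receptor Mac-1, rose in all 3 groups. Itgam averaged 1327 ± 350 CPM in LTearly, 1293 ± 313 in LTlate, 473 ± 63.1 in BMTGMP and 56.7 ± 18.8 in wtGMP, although the marrow had been depleted with an antibody to Cd11b, the protein it encodes. The log2 fold change of Itgb2 was 3.56 ± 0.20 in LTearly, 3.70 ± 0.21 in LTlate and 2.83 ± 0.20 in BMTGMP, with adjusted p of 1.63e-10 or less. Ptprc, which encodes the galectin-1 receptor Cd45, rose by 1.81 ± 0.17, 1.55 ± 0.18 and 1.08 ± 0.18 on the log2 scale in LTearly, LTlate and BMTGMP.

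Among the other receptors Alcam, an adhesion molecule bound by galectin-8, was at 67.0 ± 33.8 CPM in LTearly, 43.6 ± 5.24 in LTlate and 4.64 ± 2.70 in BMTGMP, against 64.8 ± 8.67 in wtGMP. It fell in BMTGMP (log2 fold change -3.82 ± 0.44, adjusted p = 1.90e-06) and was higher in LTearly than in BMTGMP (3.88 ± 0.44, adjusted p = 5.25e-06). Tfrc, the transferrin receptor and a ligand of galectin-3, fell in LTlate to 43.2 ± 13.8 CPM, against 135 ± 34.0 in wtGMP (-1.64 ± 0.28, adjusted p = 0.000201), and also fell in LTearly (-1.28 ± 0.26, adjusted p = 0.000556). P4hb, a protein disulphide isomerase that binds galectin-9, fell in LTearly (-0.77 ± 0.15, adjusted p = 0.000385) and in LTlate (-0.54 ± 0.16, adjusted p = 0.0274), the LTlate call being lost without any 1 of the LTlate libraries or without wtGMP replicate 1, 3 or 4. Cd44, an adhesion receptor, was higher than in wtGMP in LTearly (1.09 ± 0.23, adjusted p = 0.00168) and in LTlate (0.79 ± 0.25, adjusted p = 0.0439), where the call was lost without any 1 of the 7 libraries. It was also higher in LTearly than in BMTGMP (1.47 ± 0.26, adjusted p = 0.00151). In that last comparison 6 of the 21 receptors rose and 2 fell, beside 6.21% of all genes called. The total of 8 dropped to 3 without BMTGMP replicate 2 or LTearly replicate 3 and to 5 without BMTGMP replicate 1. All genes called went from 903 to 620, 702 and 583 in these fits. Between LTlate and BMTGMP 4 rose and 1 fell, beside 1.98% of all genes called. The total of 5 dropped to 2 without BMTGMP replicate 2 or LTlate replicate 2, while all genes called went from 288 to 230 and 155. Between LTearly and LTlate edgeR and DESeq2 called none of the 21, beside 30 and 256 of all 14542 genes. At an unadjusted p under 0.05 there were 3 of the 21, beside 1728 of all 14542 genes. Without LTearly replicate 4 edgeR called 1, beside 209 of all 13654 genes tested in that fit.

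Among 30 tested enzymes that build or trim the glycans bound by galectins, 20% were called in LTearly, 23.3% in LTlate and 20% in BMTGMP against wtGMP, beside 20.1%, 10.8% and 6.58% of all genes. The share in LTearly was thus close to that of all genes. In LTearly 4 rose and 2 fell against wtGMP, in LTlate 5 rose and 2 fell, and in BMTGMP 3 rose and 3 fell. Neu1, the lysosomal sialidase, rose in LTearly, LTlate and BMTGMP, to 82.6 ± 17.6, 77.8 ± 12.7 and 86.9 ± 29.8 CPM, against 24.9 ± 3.08 CPM in wtGMP. St3gal5, which makes the ganglioside GM3, rose in all 3 groups, in LTearly (log2 fold change 4.38 ± 0.78, adjusted p = 0.000365) in LTlate (4.58 ± 0.80, adjusted p = 0.000554) and in BMTGMP (2.72 ± 0.78, adjusted p = 0.0407), with 29.2 ± 20.0 CPM in LTearly and 33.6 ± 20.8 CPM in LTlate, against 1.45 ± 1.505 CPM in wtGMP. The BMTGMP call was lost without any 1 of the BMTGMP libraries and without wtGMP replicate 1, 2 or 3. Mgat5, which adds the N-glycan branch that carries favoured galectin-3 ligands, was at 52.8 ± 18.6 CPM in LTearly, against 150 ± 45.2 in wtGMP, and fell (-1.50 ± 0.29, adjusted p = 0.000533). B4galt4, a galactosyltransferase, fell in LTlate to 12.3 ± 7.64 CPM and in BMTGMP to 4.67 ± 0.869 CPM, against 50.6 ± 15.03 in wtGMP. It also fell in LTearly (-1.36 ± 0.43, adjusted p = 0.0260), a call lost without LTearly replicate 3 or wtGMP replicate 1 or 4. Its relative B4galt6 rose in LTearly, LTlate and BMTGMP (0.80 ± 0.21, 0.99 ± 0.22 and 1.38 ± 0.22), the LTearly call being lost without LTearly replicate 4. The total was 4 in LTlate without LTlate replicate 2, against 7, while all genes called went from 1568 to 921. In BMTGMP it was 3 without wtGMP replicate 3, against 6, while all genes called went from 957 to 727.

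In the comparisons between the other groups fewer of these enzymes passed. Against BMTGMP, 4 rose in LTearly (B4galt3, B4galt4, B4galt5 and Gcnt1) and 2 in LTlate (B4galt5 and Gcnt1), or 13.3% and 6.67% of the enzymes, beside 6.21% and 1.98% of all genes. The count for LTearly was 2 without BMTGMP replicate 1 or LTearly replicate 3, and 7 without LTearly replicate 4. All genes called went from 903 to 583, 702 and 1288 in these fits. The count for LTlate was 0 without BMTGMP replicate 1 or LTlate replicate 2, and 1 without BMTGMP replicate 2, BMTGMP replicate 4 or LTlate replicate 3. All genes called went from 288 to 308, 155, 230, 165 and 210 in these fits. Between LTearly and LTlate edgeR and DESeq2 called none of the 30 enzymes, beside 30 and 256 of all 14542 genes. At an unadjusted p under 0.05 there were 3 of these enzymes, beside 1728 of all 14542 genes.

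Among 11 tested proteins that galectins bind inside the cell, those that rose in LTlate against wtGMP included Prkaa1, a catalytic subunit of AMP kinase, at 84.5 ± 15.4 CPM in LTlate, against 40.4 ± 7.79 CPM in wtGMP (log2 fold change 1.07 ± 0.27, adjusted p = 0.00793). They also included Pdcd6ip, or Alix, at 199.98 ± 24.3 CPM in LTlate, against 126.9 ± 16.6 CPM in wtGMP (0.66 ± 0.19, adjusted p = 0.0252). Neither call held without LTlate replicate 2, and that of Pdcd6ip was also lost without LTlate replicate 3 or without wtGMP replicate 1 or 3. In LTearly 1 of the 11 was called, or 9.09%, beside 20.1% of all genes. It was Prkaa1 (0.71 ± 0.25, adjusted p = 0.0463), a call that held under 6 of 18 alternatives and was lost, among others, without LTearly replicate 1 or 3 and without wtGMP replicate 1, 2 or 3. In BMTGMP edgeR and DESeq2 called 0 of the 11 against wtGMP, beside 6.58% of all genes called by edgeR and 1424 of 14542 by DESeq2. At an unadjusted p under 0.05 there was 1 of the 11, beside 2833 of all genes. The median of the list was 0.25 in LTearly and -0.12 in LTlate, beside 0.22 and 0.00 over all genes.

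The rest of the galectin family was scarce. Of 8 other family genes listed, 7 were in the table and 4 passed the low-count filter: Lgals3bp, Lgals4, Lgals12 and Lgalsl. Lgals3bp, a secreted glycoprotein that binds galectin-3 and is not itself a galectin, averaged 2.12 ± 1.83 CPM in LTlate, against 29.1 ± 13.5 CPM in wtGMP, and fell (log2 fold change -3.76 ± 0.91, adjusted p = 0.00758). The call was lost, at -2.64, when the library with conflicting names was counted as LTlate. Its change in LTearly was -1.78 ± 0.75 (adjusted p = 0.0990), called without LTearly replicate 3, and in BMTGMP -2.07 ± 0.83 (adjusted p = 0.168). Lgals12, known mainly from fat cells, had 36 counts over the LTearly libraries, 40 over LTlate, and 0 over BMTGMP and over wtGMP. Its LTearly counts came from replicates 1 and 3 (5.63 and 4.77 CPM) and those in LTlate from replicates 2 and 3 (1.22 and 2.18 CPM), and it was not called (adjusted p = 0.111 and 0.226 against wtGMP).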

How the data were processed

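Sorted marrow cells were profiled by RNA-seq, and the authors deposited 1 table of 28847 RefSeq transcripts. Its values are expected counts on mm9, per the file headers, at most 100 hits being kept for a read, and 13.75% of them are not whole (tolerance 1e-06). The aligner was Bowtie 0.9.9.1, per the submitters' processing notes. The counting step is not given in the sources used here. Another 1 column matches no sample and was not used.

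Of the transcripts, 26092 were matched to a symbol (25973 in a RefSeq table, 119 in GENCODE), and the rest held 3.51% to 4.16% of counts. Transcripts of a gene share reads (the lower had a median of 0.972 of the higher count at 1356 genes with a pair of them), so the one with the highest mean count was used, rounded. No pair of the 105 pairs of libraries was identical (0 found). The 14 libraries with a group entered 1 fit: edgeR 4.0.16 under R 4.3.3, TMM scaling, filterByExpr (14542 genes), robust quasi-likelihood test, 2-sided, Benjamini-Hochberg adjusted p under 0.05, common biological coefficient of variation 0.748. CPM are per effective library size, SE is |log2 fold change| divided by the root of F, and intervals are 2 SE. The fit was tested on simulated data. Counts above 3 in a group mark a marker as detected. Lengths are those of GENCODE transcripts.

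The members, the 4 gene lists (74 genes, 72 in the table) and the marker lists were chosen with earlier results of these data known, and no set test was run. Named from each list were up to 4 called genes with the smallest p per comparison, and for each member the 5 genes of at least 5 CPM with the smallest RMS difference (prior count 2). The enzymes called against BMTGMP, calls of a named gene in further groups, the markers Adgre1, Mpo, Elane and Kit, and the family genes were named after their values were seen. A called gene of the intracellular list is not reported here. Alternatives were DESeq2 1.42.0, median-ratio size factors, no filter or 1 CPM in 3 libraries, a replicate block, the library with conflicting names counted as LTearly or LTlate, only the groups compared, transcripts summed per gene, each library left out, and, added after seeing the data, thinning to 2469470 counts.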

Additional observations from a re-analysis of the deposited data

Results flagged for a closer look

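A single wtGMP library stood far from its group in Lgals3: replicate 3 had 22.9 CPM, while the other wtGMP libraries had 5.59, 4.73 and 5.70 CPM. The flag is Dixon's gap test, with a critical value of 0.829 for 4 values. For normally distributed values it flags about 1 in 20 groups of this size. These CPM rest on 39, 12, 102 and 18 counts, and whether that rate holds for them was not tested. Without that library the log2 fold change of Lgals3 against wtGMP was 4.85 in LTearly, 4.77 in LTlate and 2.51 in BMTGMP.

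The change of a galectin from wtGMP differed between groups in 3 cases, each tested as the direct comparison of the groups in edgeR. For Lgals1 the difference was -1.44 on the log2 scale between LTearly and LTlate (adjusted p = 0.00586), and the groups moved in opposite directions from wtGMP, lower in 4 of 4 LTearly libraries and higher in 3 of 3 LTlate libraries. The call of LTlate against wtGMP held in 1 of 7 fits with a library left out. With the library of conflicting names counted as LTlate, neither that call nor the one between LTearly and LTlate held (adjusted p = 0.624 and 0.410). Between LTearly and BMTGMP it was -0.98 for Lgals1 (adjusted p = 0.0105) and 2.34 for Lgals3 (adjusted p = 0.0324).

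The library with conflicting names enters no comparison. It held 125 CPM of Lgals3 and 41.4 CPM of Lgals8, while the highest wtGMP library had 22.9 and 38.0 CPM. At how many of all genes this library lies above every wtGMP library was not counted, so these values are a description.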

How the results depend on the processing

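Of 408 values of a galectin under an alternative, 363 kept their direction and their side of the threshold, 23 lost it, 8 gained it and 14 changed sign, all of the last among differences that were not called. The replicate numbers did not pair the libraries (correlations of deviations -0.16 to 0.11 over 18 same-numbered pairs, 1 above 0.1, and 3 of 14 libraries closest to their own number). With the replicate number as a block, Lgals1 in LTlate against wtGMP was 0.73 (adjusted p = 0.0710), and Lgals3 was 2.03 in BMTGMP against wtGMP (0.0117), -0.18 between LTearly and LTlate (0.945) and 2.19 between LTlate and BMTGMP (0.0155). Counting the library with conflicting names as LTlate gave Lgals1 -0.77 in LTearly and 0.41 in LTlate against wtGMP, -1.17 between LTearly and LTlate and -1.01 between LTearly and BMTGMP (adjusted p = 0.244, 0.624, 0.410 and 0.251). Counted as LTearly, it gave 0.72 for Lgals1 in LTlate against wtGMP (0.0788) and -0.035 for Lgals3 between LTearly and LTlate (0.992). With transcripts summed per gene, Lgals1 in LTlate was 0.73 (0.0769). With only the compared groups in the fit, Lgals1 between LTearly and BMTGMP was -0.99 (0.0753), and Lgals3 was 1.64 in BMTGMP against wtGMP (0.0469) and 2.26 between LTlate and BMTGMP (0.000139). DESeq2 gave 1.63 (0.0176) and 2.26 (0.00133) for the same 2 differences. Without a low-count filter Lgals3 between LTearly and BMTGMP was 2.31 (0.0603) and Lgals8 in BMTGMP against wtGMP -0.0079. The cause was not tested.

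With each library left out in turn, Lgals1 ranged over -0.83 to -0.64 in LTearly, 0.56 to 0.91 in LTlate and -0.10 to 0.50 in BMTGMP against wtGMP, and over -1.26 to -0.64 between LTearly and BMTGMP. For Lgals3 the range was 1.41 to 2.51 in BMTGMP against wtGMP, -0.30 to 0.31 between LTearly and LTlate and 1.98 to 2.59 between LTearly and BMTGMP. Lgals8 ranged over 0.66 to 1.23 in LTearly and -0.31 to 0.33 in BMTGMP against wtGMP and over -0.054 to 0.40 between LTearly and LTlate, and Lgals9 over -0.51 to 0.10 in LTearly and -0.058 to 0.30 in BMTGMP against wtGMP.

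Counts over all genes moved by over 1.5 times in 4 comparisons. The 30 genes called between LTearly and LTlate became 256 with DESeq2, 141 without a filter, 52 with a filter of 1 CPM, 86 with the conflicting library as LTearly, 0 with it as LTlate (1514 at an unadjusted p under 0.05), and 4 to 209 with a library left out. The 903 between LTearly and BMTGMP became 1493 with DESeq2, 407 with only these groups and 583 without BMTGMP replicate 1. The 288 between LTlate and BMTGMP became 569 with DESeq2, 454 with only these groups, and 165 and 155 without BMTGMP replicate 4 and LTlate replicate 2. The 1568 between LTlate and wtGMP became 2483 with only these groups and 921 without LTlate replicate 2. Of list counts, the 4 glycan enzymes called between LTearly and BMTGMP became 0 with only these groups, 7 with DESeq2, and 2 with summed transcripts or the block, and the 8 receptors became 3 with only these groups and 5 with the block. All genes called there were 711 with summed transcripts and 805 with the block. The 2 enzymes between LTlate and BMTGMP became 0 with summed transcripts or thinning, and 1 with the block or the conflicting library as LTlate. All genes called there were 235 with summed transcripts, 295 with thinning, 299 with the block and 318 with the conflicting library as LTlate. The 7 in LTlate against wtGMP became 11 with only these groups. Family genes called with only the compared groups were 1 in LTearly and 1 in BMTGMP against wtGMP, from 0 each. All genes called there were 2574 in LTearly, from 2920, and 1216 in BMTGMP, from 957. Wide intervals at 3 or 4 libraries a group limit Lgals8 and Lgals9, and Lgals3 in wtGMP rests on few counts.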

Other observations

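In the library titled LTearly whose column is named LTlate, Lgals1 was at 77.9 CPM and Lgals9 at 57.2 CPM. The lowest Lgals1 level among the other 14 libraries was 104 CPM, in LTearly replicate 1. Lgals3 took 39.0% of the summed galectin level per kilobase there, and Lgals1 39.6%. Late neutrophil markers summed to 18102 CPM and GMP markers to 3818 CPM in it, both within the range of the LTearly libraries, while its long-term stem cell markers summed to 106 CPM, above that range. These values were not used to assign it to a group.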
